A study of Homo sapiens with 5 samples.

Results

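The genes described here are 41 genes of homologous recombination and the Fanconi anemia pathway, taken by symbol from the 26364 genes listed in a transcriptome study of NSD2 depletion, and all 41 were found. The cells were IMR-90, a normal human lung fibroblast line, grown in medium with serum. They were collected 24 hr after transfection of siRNA, and messenger RNA was sequenced. There were 2 libraries of Ctr-KD cells, which received a control siRNA, and 3 libraries of NSD2-KD cells, which each received a different siRNA against the H3K36 methyltransferase NSD2 (NSD2-1, NSD2-2 or NSD2-3). All 5 libraries thus came from transfected cells of the same line, and each NSD2 siRNA has 1 library, so that siRNA and replicate cannot be told apart. The methods call each library a biological replicate, without naming separate cultures. The p-values set a difference against the spread of the libraries within the groups. That spread lay mostly between the 3 NSD2 siRNAs, since the 2 control libraries differed by little more than counting noise.

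Each library held between 2473691 and 2845063 reads assigned to genes. NSD2, listed under its older symbol WHSC1, had 463 and 443 normalized counts in Ctr-KD libraries and 90.2, 81.9 and 87.9 in NSD2-KD libraries, or 19.1% of the control mean. Its limma adjusted p was 0.000464 with all libraries, 0.0927 without Ctr-KD replicate 1 and 0.0758 without Ctr-KD replicate 2. The pair of controls was close to counting noise, with a chi-square of 1.05 for each degree of freedom, whereas every other pair gave at least 3.87. Fibroblast markers were high in every library, with a summed normalized count over 10 genes between 202238 and 228140, although S100A4 had at most 9 reads. Of the epithelial, endothelial and blood markers, EPCAM, PECAM1 and PTPRC had between 0 and 2 reads in any library, and only TEK and CD68 passed the filter on low counts.

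Homologous recombination repairs a broken chromosome by copying the intact sister chromatid, and it therefore acts mainly in S and G2 phase. Broken ends are first resected by the MRE11-RAD50-NBN complex with its partner CtIP (RBBP8) and by the nuclease EXO1. BRCA1 with BARD1, PALB2 and BRCA2 then loads the recombinase onto the single-stranded DNA, and the recombinase paralogs, RAD54L and RAD54B help it to find and invade the partner strand. The joined molecules are taken apart by BLM with TOP3A, RMI1 and RMI2, or cut by MUS81 with EME1. The Fanconi anemia pathway handles crosslinks between DNA strands. Its core complex and the E2 enzyme UBE2T attach ubiquitin to FANCD2 and FANCI, USP1 removes it, and the crosslink is cut and handed to recombination. ATM and ATR are the kinases that signal breaks and stalled forks, and CHEK2 and CHEK1 are their effector kinases.

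Most of these genes had few reads. Over the 41 genes, a library held between 1575 and 2559 reads, and single values ran from 1 read to 228 reads. The values compared are normalized counts, in which 1 read is worth between 0.920 and 1.09 depending on the library. Of the 41 genes, 39 had a mean normalized count of at least 10 and were tested together with all 11313 genes above that limit. RAD51B and RMI2 were below it. A further 23 tested genes had a mean under 50, so that counting error alone was large for them. Differences are given as log2 differences, NSD2-KD minus Ctr-KD, of log2(normalized count + 1). The added 1 shrinks those of low genes, while 1 very low library can widen them beyond the edgeR value, as for RAD51AP1 below.

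**Figure D1:**
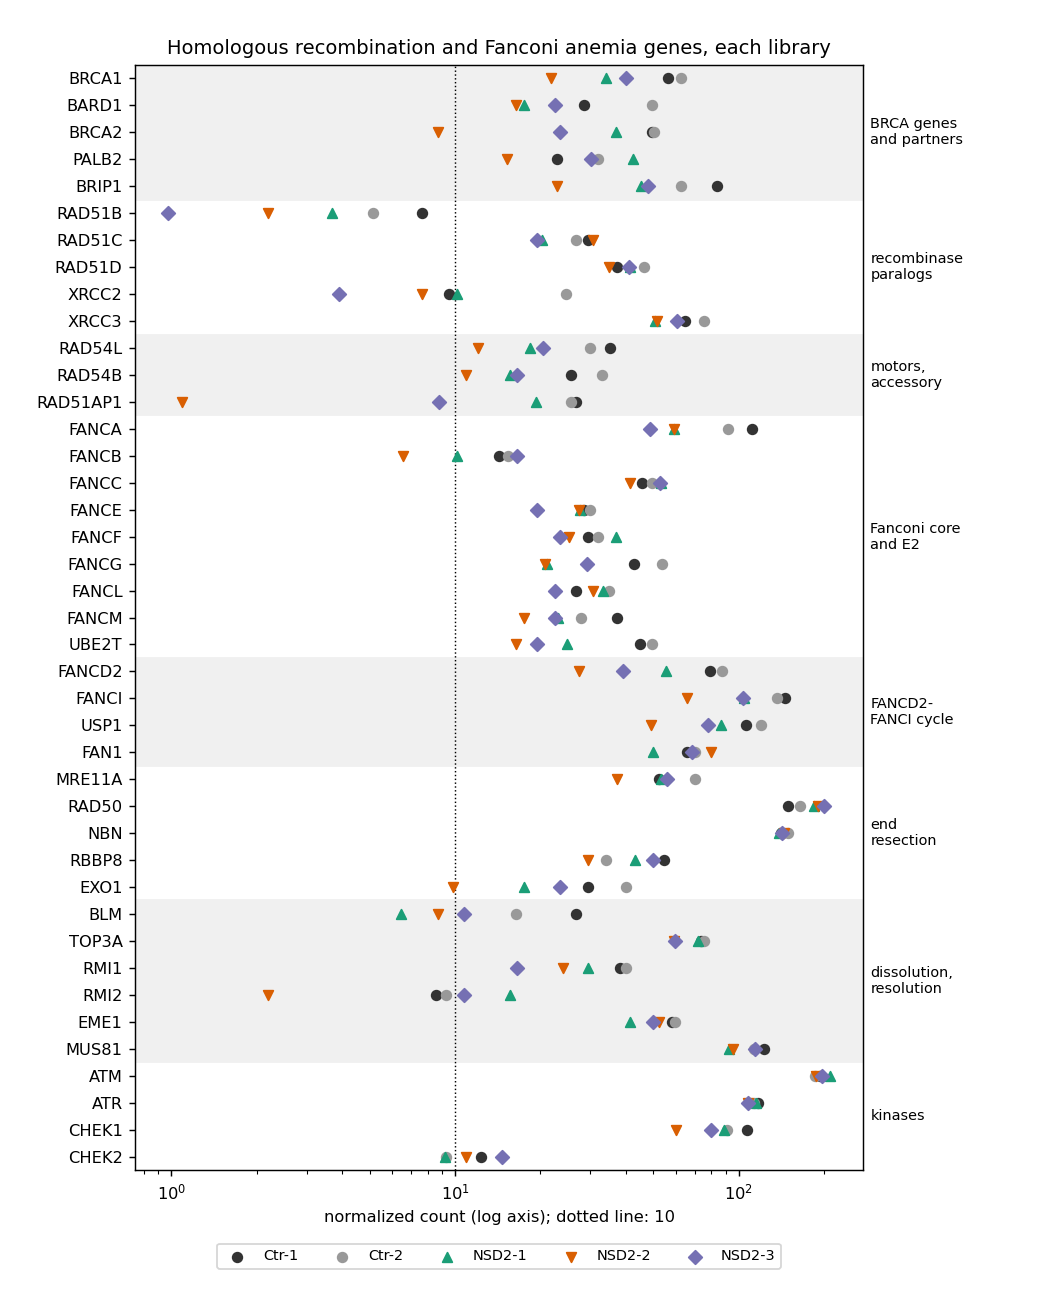
Normalized counts (log axis) of the 41 genes in each of the 5 libraries, grouped by role, with a dotted line at the limit of 10 for the mean. ATM, RAD50 and NBN have the highest means, and the NSD2-2 library stands far to the left for BRCA2 (8.74) and RAD51AP1 (1.09).

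No single gene of the 39 passed the adjustment over all tested genes. The smallest adjusted p was 0.201 in limma (UBE2T), 0.142 in edgeR and 0.157 in DESeq2, where 27 of the genes had an adjusted p. The background was small as well, since limma called 0.0530% of all tested genes lower and 0.0354% higher. At an unadjusted limma p under 0.05, 17 of the 39 genes were lower and 1 was higher, against 4.99% and 4.19% of all tested genes. edgeR gave 18 lower genes at that unadjusted level (5.28% of all tested genes) and DESeq2 gave 15 (3.10%), and neither gave a higher one. In 22 of the 39 genes all 3 NSD2-KD libraries lay below both Ctr-KD libraries (13.9% of all tested genes), in 1 gene all lay above them (13.8%), and in 16 genes the groups overlapped. The count of 17 depended on having both controls. It was 9 without Ctr-KD replicate 1 and 7 without Ctr-KD replicate 2, where the background was 2.14% and 2.00%, and it was 5 of 16 genes when a mean of at least 50 was required (4.56% of 7586 genes).

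The median log2 difference of the 39 genes was -0.38, beside -0.0089 for all tested genes, and 34 of the 39 had a negative difference. Set against the mean of the controls, the library medians were -0.43 (NSD2-1), -0.70 (NSD2-2) and -0.44 (NSD2-3). NSD2-2 gave the lowest value of the siRNAs in 23 of the 39 genes (59.0%), beside 34.8% of all tested genes. The 17 genes named by the unadjusted p kept between 37.2% and 64.6% of their Ctr-KD mean. Their summed normalized count was at 63.2%, 40.4% and 58.8% of the Ctr-KD mean with NSD2-1, NSD2-2 and NSD2-3, while the sum of the other 22 tested genes was at 96.3%, 89.6% and 96.6%. These sums describe genes that were picked for their difference.

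**Figure D2:**
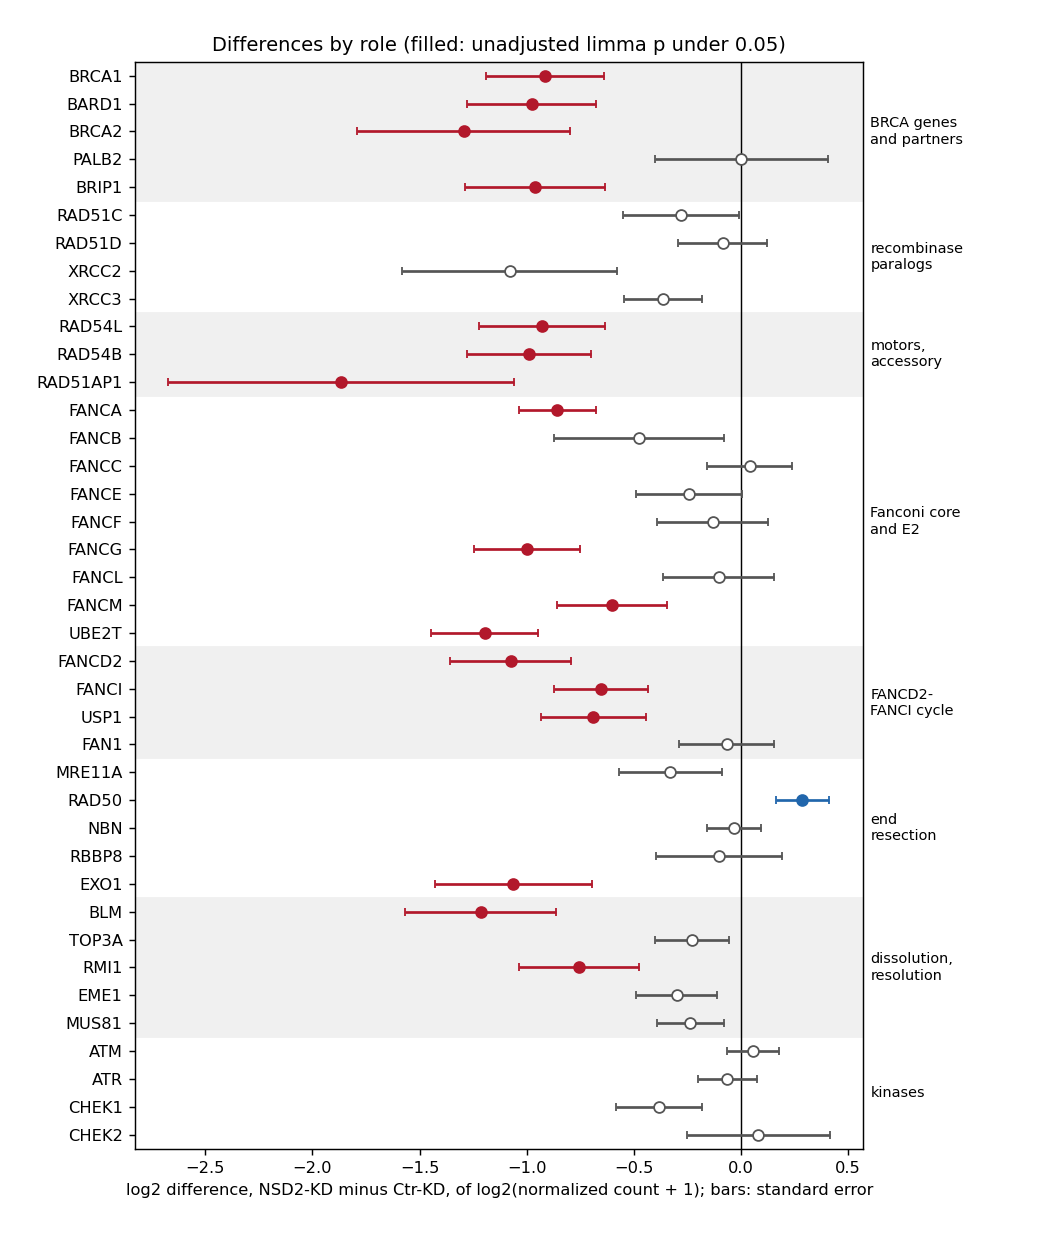
Log2 difference (NSD2-KD minus Ctr-KD) of the 39 tested genes with its standard error, by role. Filled points mark an unadjusted limma p under 0.05, which 4.99% of all tested genes passed in the lower direction. The 17 filled points below 0 include 4 of 5 BRCA genes and partners, all 3 motor and accessory factors, 4 Fanconi core and E2 genes, FANCD2, FANCI, USP1, EXO1, BLM and RMI1, and RAD50 (0.29) is the filled point above 0.

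Markers of proliferating cells also lay lower in the NSD2-KD libraries. Of 12 such genes, 11 were lower at an unadjusted limma p under 0.05, beside 4.99% of all tested genes. RRM2 alone passed the adjustment in limma (adjusted p = 0.00228) and in edgeR. DESeq2 called 4 of the 12 lower at an adjusted p, namely RRM2, TOP2A, MCM3 and AURKB. Their median log2 difference was -1.03, and their summed count was at 54.2%, 34.1% and 46.9% of the Ctr-KD mean with NSD2-1, NSD2-2 and NSD2-3. MKI67, the Ki-67 antigen, had 912 and 967 normalized counts in Ctr-KD cells and 481, 217 and 110.3 in NSD2-KD cells. TOP2A, a topoisomerase of dividing cells, had 629 and 662 against 419, 274 and 221. PCNA, the sliding clamp of replication, had 222 and 217 against 136, 132 and 196. The part of the cycling fraction in the values of the repair genes was not tested. In bulk RNA, fewer cells in S and G2 phase cannot be told apart from less RNA of these genes per cell.

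Among the BRCA genes and their partners, 4 of 5 lay below both controls in every NSD2-KD library, beside 13.9% of all tested genes. BRCA1, the ubiquitin ligase subunit that promotes resection and loading of the recombinase (GRCh37 chromosome 17, 41196312 to 41322262), had 56.2 and 62.8 normalized counts in Ctr-KD cells and 34.0, 21.8 and 40.02 with NSD2-1, NSD2-2 and NSD2-3. The groups did not overlap, with a log2 difference of -0.92 and a standard error of 0.27 (limma adjusted p = 0.345). BARD1, its obligate partner, had 28.6 and 49.4 against 17.5, 16.4 and 22.5, so that the gap between the Ctr-KD libraries was wider than that between the groups. Its log2 difference was -0.98 (adjusted p = 0.352), and -0.59 without Ctr-KD replicate 2. BRIP1, a helicase that binds BRCA1, had 83.8 and 62.8 against 45.1, 22.9 and 47.8 (log2 difference -0.96, adjusted p = 0.404), and its difference was -0.63 without NSD2-2.

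BRCA2, which loads the recombinase, varied most between the siRNAs in this group. It had 49.5 and 50.4 normalized counts in Ctr-KD cells and 36.8, 8.74 and 23.4 in NSD2-KD cells, or 52 and 49 reads against 40, 8 and 24. With NSD2-1 it kept 73.7% of the Ctr-KD mean and with NSD2-2 17.5%, and its log2 difference of -1.29 had a standard error of 0.50 (adjusted p = 0.470) and was -0.75 without NSD2-2. PALB2, which bridges BRCA1 and BRCA2, was the exception. It had 22.9 and 31.9 against 42.3, 15.3 and 30.3, with the highest and the lowest value both in NSD2-KD libraries and a log2 difference of 0.0017.

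All 3 motor and accessory factors lay below both controls in every NSD2-KD library, beside 13.9% of all tested genes. RAD54L, a translocase that helps strand invasion, had 35.2 and 29.8 normalized counts against 18.4, 12.0 and 20.5 (log2 difference -0.93, standard error 0.29, adjusted p = 0.375 from limma). Exons of LRRC41 on the other strand cover 19.9% of its exon bases, and LRRC41 had 335 and 321 against 338, 395 and 362. RAD54B, its relative, had 25.7 and 32.9 against 15.6, 10.9 and 16.6 (log2 difference -0.99, adjusted p = 0.332). FSBP, which shares 66.0% of the exon bases of RAD54B on the same strand, had 9.53 and 9.26 against 5.52, 4.37 and 4.88. How the counting treated reads on the shared bases is not known, so both counts are uncertain.

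RAD51AP1, which stimulates the recombinase, had the log2 difference farthest from 0 among the 39 genes in limma and also the largest standard error, and its value rested on the NSD2-2 library. It had 26.7 and 25.7 normalized counts in Ctr-KD cells and 19.3, 1.09 and 8.79 in NSD2-KD cells, or 28 and 25 reads against 21, 1 and 9. The log2 difference of -1.86 had a standard error of 0.81 (adjusted p = 0.543). It was -0.95 without NSD2-2, and -1.36 in edgeR and -1.41 in DESeq2 with all libraries. With NSD2-2 the ratio to Ctr-KD was 0.0417, with a 95% counting interval (exact Clopper-Pearson) from 0.0010 to 0.242, which covers counting error only.

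Of the 4 tested recombinase paralogs, which stabilise the recombinase filament, 1 (XRCC3) lay below both controls in every NSD2-KD library. That order held for 13.9% of all tested genes. None of the 4 passed an unadjusted p of 0.05 in limma, and 1 (XRCC2) did in edgeR, where 5.28% of all tested genes were lower at that level. XRCC2 had 10, 24, 11, 7 and 4 reads in the order Ctr-1, Ctr-2, NSD2-1, NSD2-2 and NSD2-3, so that the groups overlapped (log2 difference -1.08, standard error 0.50). XRCC3 had 64.8 and 75.1 normalized counts against 50.6, 51.3 and 60.5 (log2 difference -0.36, adjusted p = 0.605). Exons of KLC1 on the other strand cover 76.7% of the exon bases of XRCC3, and KLC1 had 518 and 452 against 517, 560.4 and 556, so the count of XRCC3 is uncertain. RAD51C and RAD51D overlapped between groups, with log2 differences of -0.28 and -0.09. RAD51B, below the filter, had 8 and 5 reads in Ctr-KD cells and 4, 2 and 1 in NSD2-KD cells, which were all below both controls, and it was not tested over the libraries. With NSD2-3 alone its ratio to Ctr-KD was 0.152 (95% counting interval 0.0036 to 1.011).

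In the Fanconi core complex and its E2, 4 of 9 genes were lower at an unadjusted limma p under 0.05, beside 4.99% of all tested genes. UBE2T, the E2 enzyme that charges the pathway with ubiquitin (GRCh37 chromosome 1, 202300672 to 202311112), had 44.8 and 49.4 normalized counts in Ctr-KD cells and 24.8, 16.4 and 19.5 in NSD2-KD cells. Every NSD2-KD library was below both controls, with means of 47.1 ± 3.26 (SD, n = 2) and 20.3 ± 4.28 (SD, n = 3). The log2 difference of -1.20 had a standard error of 0.25 (limma adjusted p = 0.201). No exon of another gene overlaps it in the annotation. FANCG, a scaffold of the core complex, had 42.9 and 53.5 against 21.2, 20.8 and 29.3 (log2 difference -1.0003, standard error 0.25, adjusted p = 0.267).

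FANCA, which forms a subcomplex with FANCG (GRCh37 chromosome 16, 89793091 to 89883385), had 111 and 91.6 normalized counts against 58.9, 59.0 and 48.8. The siRNAs left it at 58.0%, 58.1% and 48.1% of the Ctr-KD mean. Its log2 difference of -0.86 had a standard error of 0.18 (limma adjusted p = 0.207). Exons of ZNF276 on the other strand cover 19.6% of the exon bases of FANCA. ZNF276 had 104 and 76.1 against 55.2, 77.6 and 59.5, and its part in the FANCA count was not tested. FANCM, the translocase that anchors the complex on DNA, had 37.2 and 27.8 against 23.0, 17.5 and 22.5 (log2 difference -0.60, adjusted p = 0.531). Its difference was -0.40 without Ctr-KD replicate 1, and its unadjusted p was no longer under 0.05 in DESeq2 or when any 1 library was left out.

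The other genes of the core complex did not pass an unadjusted p of 0.05. FANCC had 45.7 and 49.4 normalized counts against 53.4, 41.5 and 52.7 (log2 difference 0.04, standard error 0.20). FANCF, FANCL and FANCB overlapped between the groups, with log2 differences of -0.13, -0.10 and -0.48. FANCE had no overlap but a small difference, with 28.6 and 29.8 against 27.6, 27.3 and 19.5 (log2 difference -0.24, adjusted p = 0.829). FANCL, the ubiquitin ligase subunit itself, had 28, 34, 36, 28 and 23 reads across the 5 libraries, with the groups interleaved.

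The substrates of the pathway and the enzyme that resets them all lay below both controls in every NSD2-KD library. Of all tested genes, 13.9% did so. FANCD2 (GRCh37 chromosome 3, 10068054 to 10143616) had 79.1 and 87.4 normalized counts in Ctr-KD cells and 55.2, 27.3 and 39.05 in NSD2-KD cells, or 83 and 85 reads against 60, 25 and 40. Its log2 difference of -1.08 had a standard error of 0.28 (limma adjusted p = 0.274). Its partner FANCI had 146 and 136 against 104, 65.5 and 103 (log2 difference -0.65, adjusted p = 0.400), and USP1 had 106 and 119.3 against 86.5, 49.2 and 78.1 (log2 difference -0.69, adjusted p = 0.424). In all 3 genes NSD2-2 gave the lowest value, between 32.8% and 46.6% of the Ctr-KD mean. Without that library the log2 difference was -0.44 for FANCI and -0.45 for USP1. FAN1, the nuclease recruited by ubiquitinated FANCD2, did not share this, at 65.7 and 69.96 against 49.7, 79.7 and 68.3 (log2 difference -0.07).

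**Figure D3:**
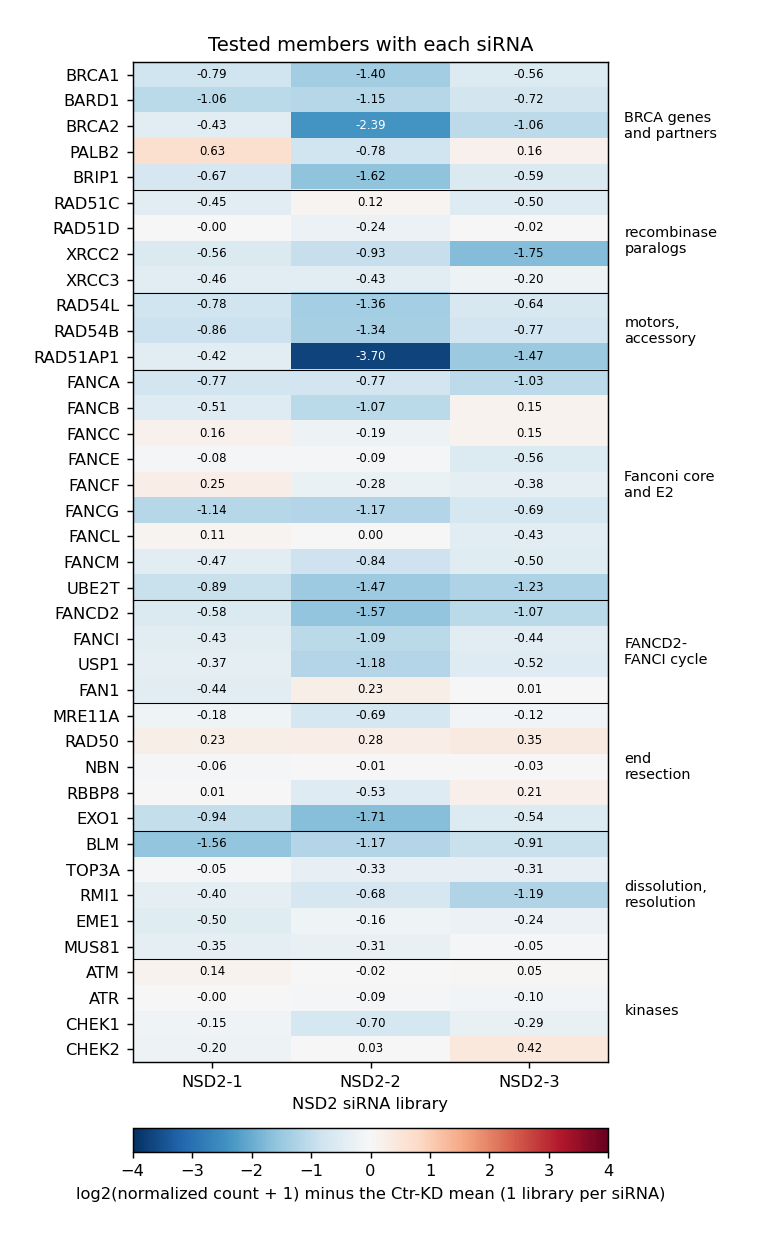
Log2(normalized count + 1) of each NSD2-KD library minus the Ctr-KD mean for the 39 tested genes, 1 library per siRNA, on a colour scale from -4 to 4. The NSD2-2 column is the darkest for the BRCA genes, the motor proteins and FANCD2, FANCI and USP1, down to -3.70 for RAD51AP1, while BLM was lowest with NSD2-1 and RMI1 and XRCC2 with NSD2-3.

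The end resection genes were divided. RAD50, the ATPase of the MRE11 complex, was the only gene of the 39 to lie above both controls in every NSD2-KD library, with 149 and 165 normalized counts against 184, 190.1 and 199. The log2 difference of 0.29 had a standard error of 0.12 (limma adjusted p = 0.544), and its unadjusted p passed 0.05 in limma but not in edgeR or DESeq2. A readthrough gene in the annotation shares 76.9% of its exon bases on the same strand. NBN, of the same complex, had 141 and 149 against 139, 144 and 143 (log2 difference -0.03, standard error 0.13), with overlap. MRE11A had 52.4 and 69.96 against 53.4, 37.1 and 55.6 (log2 difference -0.33), and RBBP8 had 54.3 and 34.0 against 43.2, 29.5 and 49.8 (log2 difference -0.10), both with overlap. EXO1, the nuclease for long-range resection, went with the lower genes, at 29.5 and 40.1 against 17.5, 9.83 and 23.4 (log2 difference -1.06, standard error 0.37, adjusted p = 0.413).

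Of the genes that take joint molecules apart, BLM and RMI1 were lower at an unadjusted p under 0.05. BLM, the helicase missing in Bloom syndrome, had 26.7 and 16.5 normalized counts against 6.44, 8.74 and 10.7, or 28 and 16 reads against 7, 8 and 11 (log2 difference -1.21, standard error 0.35, adjusted p = 0.324 from limma). RMI1, its scaffold partner, had 38.1 and 40.1 against 29.4, 24.0 and 16.6 (log2 difference -0.76, adjusted p = 0.446). The unadjusted p of RMI1 was no longer under 0.05 in DESeq2 or without either Ctr-KD library or NSD2-3, and that of BLM without Ctr-KD replicate 1. TOP3A, the topoisomerase of the same complex, had 73.4 and 75.1 against 71.8, 59.0 and 59.5 (log2 difference -0.23). RMI2, below the filter, had 9 and 9 reads against 17, 2 and 11, on both sides of the controls. The nuclease subunits MUS81, with 123 and 113 against 92.0, 95.03 and 114 (log2 difference -0.24, adjusted p = 0.716, with overlap), and EME1, with 58.1 and 59.7 against 41.4, 52.4 and 49.8 (log2 difference -0.30, without overlap), did not pass an unadjusted p of 0.05. Exons on the other strand cover 14.1% of MUS81 and 16.4% of EME1.

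The kinases ATM and ATR overlapped between the groups and had the smallest standard errors beside RAD50 and NBN. ATM had 193 and 186 normalized counts against 209.8, 187 and 196, with a log2 difference of 0.06 (standard error 0.12, adjusted p = 0.923 from limma). ATR had 117 and 113 against 115, 108 and 107, with a log2 difference of -0.06 (standard error 0.14, adjusted p = 0.922). CHEK1, the effector of ATR, had 107 and 90.5 against 88.3, 60.1 and 80.0, below both controls in every NSD2-KD library, nearest with NSD2-1 and farthest with NSD2-2 (log2 difference -0.38, standard error 0.20, adjusted p = 0.628). Without NSD2-2 (NSD2-KD replicate 2) the difference of CHEK1 was -0.22. Exons on the other strand cover 13.4% of the exon bases of CHEK1. CHEK2 had 13 and 9 reads against 10, 10 and 15, and the sign of its log2 difference of 0.08 (standard error 0.33) changed when Ctr-KD replicate 2 or NSD2-KD replicate 3 was left out.

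**Figure D4:**
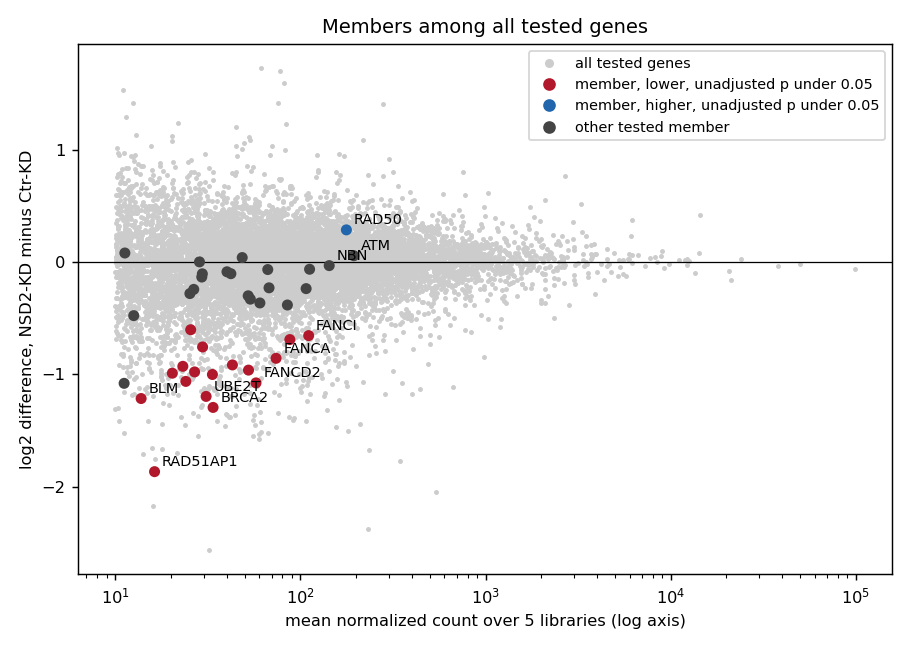
Log2 difference against the mean normalized count (log axis) for all 11313 tested genes (grey) and the 39 tested genes of the pathway. The 17 red points (lower, unadjusted p under 0.05) have mean counts up to that of FANCI, at a log2 difference of -0.65, and RAD50 (0.29) is the blue point.

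Levels of different genes were compared as normalized counts per kb of the canonical transcript. In Ctr-KD cells UBE2T was the highest at 53.6 per kb, followed by MUS81 at 49.9, NBN at 31.4, USP1 at 31.2 and FANCI at 29.7. At the other end were XRCC2 at 3.59 per kb, RAD51B at 4.09, BLM at 4.12 and BRCA2 at 4.18. In NSD2-KD cells UBE2T was at 23.1 per kb, beside MUS81 at 42.5 and NBN at 30.7. The isoforms used in these cells were not measured, so these levels rest on the annotated lengths. Exons of CFL1 and EFEMP2 on the other strand cover 14.1% of the exon bases of MUS81, and their part in its level was not tested.

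Other genes of the same pathways were taken from a list of 47, of which 42 were tested. None passed the adjusted test in limma or edgeR. The unadjusted limma p was under 0.05 for 9 genes with a negative difference and 1 with a positive one, beside 4.99% and 4.19% of all tested genes. The median log2 difference of the 42 was -0.20. The lower genes were RPA1 and RPA2, which coat single-stranded DNA, SLX4 and GEN1 of junction cutting, the ubiquitin ligases RNF168 and RFWD3, the polymerase POLQ, and TOPBP1 and CLSPN, which activate ATR and CHEK1. CLSPN (claspin) had 106 and 92.6 normalized counts against 51.5, 25.1 and 30.3 (log2 difference -1.51), and in DESeq2 its adjusted p was 0.00937. The higher gene was REV3L, the catalytic subunit of a polymerase that copies past DNA damage, with 119.1 and 110.1 against 161, 197 and 218 (log2 difference 0.73, adjusted p = 0.224 from limma). Of 12 listed genes of end joining, the route that needs no sister chromatid, 1 was lower at an unadjusted limma p under 0.05. It was PRKDC (log2 difference -0.24, adjusted p = 0.502). That is 8.33% of the list, beside 4.99% of all tested genes. None of the 12 passed the adjusted test, and their median log2 difference was -0.10. POLQ, counted above, was not on this list.

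The study asked about E2F and RB family proteins at promoters, and the promoters here were searched for letters of the E2F site. These were TTTCCCGC, TTTGGCGC, TTTGCCGC or TTTCGCGC on either strand, in RefSeq windows from 250 bases before to 50 bases after each annotated start (GRCh38.p14). Of the 41 genes, 37 had a window and 6 of these held a match (16.2%), beside 6.79% of 9143 tested genes with a window and 3.31% of 35116 windows in all. The genes were FANCD2, EXO1, FANCA, RMI1, XRCC2 and FANCC. Of the 15 genes lower at an unadjusted p that had a window, 4 held a match, and of the other 21 tested genes with a window 2 did (XRCC2 and FANCC). The CHR letters TTTGAA or TTCGAA were found in 13.5% of the 37 genes and 15.6% of tested genes, and CCAAT in 48.6% and 43.4%. These are matches of letters and not bound sites.

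The windows of 4 of these genes are shown because they set 3 genes that were lower beside FANCC, which holds 2 matches and was at the Ctr-KD level. Each runs 5′ to 3′ on the strand of the gene from 250 bases before to 30 bases after the start, was found once in GRCh37 by exact match, and has the matching letters in capitals.
FANCD2 (GRCh37 chr3:10067871-10068150, plus strand): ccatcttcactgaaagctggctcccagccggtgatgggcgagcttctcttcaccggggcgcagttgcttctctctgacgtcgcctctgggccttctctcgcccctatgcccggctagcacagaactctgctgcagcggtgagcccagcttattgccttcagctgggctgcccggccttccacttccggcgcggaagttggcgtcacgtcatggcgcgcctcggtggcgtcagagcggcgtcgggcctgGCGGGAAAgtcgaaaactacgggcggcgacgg
EXO1 (GRCh37 chr1:242011256-242011535, plus strand): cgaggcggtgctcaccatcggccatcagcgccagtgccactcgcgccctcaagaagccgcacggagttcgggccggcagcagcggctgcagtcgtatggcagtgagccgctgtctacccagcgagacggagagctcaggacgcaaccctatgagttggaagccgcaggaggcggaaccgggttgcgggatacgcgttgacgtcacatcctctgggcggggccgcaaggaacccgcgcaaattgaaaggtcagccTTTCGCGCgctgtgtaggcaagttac
FANCA (GRCh37 chr16:89883026-89883305, minus strand): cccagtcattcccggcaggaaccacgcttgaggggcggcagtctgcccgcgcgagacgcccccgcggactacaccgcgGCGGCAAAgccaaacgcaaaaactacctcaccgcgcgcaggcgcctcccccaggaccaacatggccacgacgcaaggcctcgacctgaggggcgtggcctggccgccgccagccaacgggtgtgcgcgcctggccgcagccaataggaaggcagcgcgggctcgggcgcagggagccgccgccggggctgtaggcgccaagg
FANCC (GRCh37 chr9:98079962-98080241, minus strand): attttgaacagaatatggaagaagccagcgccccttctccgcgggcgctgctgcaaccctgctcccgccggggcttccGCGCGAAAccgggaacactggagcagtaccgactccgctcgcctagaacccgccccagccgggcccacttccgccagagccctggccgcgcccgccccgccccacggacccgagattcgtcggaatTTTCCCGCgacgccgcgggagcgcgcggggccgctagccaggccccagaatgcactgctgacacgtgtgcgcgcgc
Positions count from the RefSeq start of the window shown, which lies inside the GENCODE gene span printed above for FANCD2 and FANCA. EXO1 and FANCC each have 2 windows, and only the window shown holds a match. In FANCD2 the match spans that start, beginning at position -2 and read on the other strand. In EXO1 it begins at position 5. In FANCA it begins at position -172 on the other strand, and FANCC has 1 match at position -172 on the other strand and another at position -46 on the gene's strand. The log2 differences were -1.08 for FANCD2, -1.06 for EXO1, -0.86 for FANCA and 0.04 for FANCC.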

How the data were processed

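mRNA-seq libraries of IMR-90 cells, 2 Ctr-KD and 3 NSD2-KD, were grouped by their sample labels. Per the study's methods, the authors used Trimmomatic for trimming, HISAT2 for alignment to hg19, SAMtools to keep unique alignments and featureCounts for gene counts. The signal deposited for each gene is its count after the authors divided it by a DESeq2 size factor, which hides a change shared by all genes. The strand setting is not given in the sources used here. All values (100%) were whole multiples of 1 read, with a tolerance of 0.001 of a read that widened in proportion for the highest counts, so reads were recovered. The other deposited table, the authors' own DESeq2 comparison (base means, fold changes and p-values), was not used.

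The main test was limma 3.58.1 (R 4.3.3), with its trend option, on log2(normalized count + 1), for genes with a mean of at least 10, with Benjamini-Hochberg adjustment over all of them at 0.05. With 2 libraries against 3, the smallest exact permutation p is 0.1. edgeR 4.0.16 (quasi-likelihood, TMM), DESeq2 1.42.0 and limma-voom on recovered reads, other pseudocounts, filters and scalings, a replicate block and left-out libraries were the alternatives. In data simulated for the same groups over 11268 genes, limma called 98 of 100 genes changed 4-fold, 55 of 100 changed 2-fold and 8 unchanged genes. Every simulated gene and library had the same spread beyond counting noise, unlike the real libraries, so these are not the rates for the genes described here. Positions, lengths and exon overlaps came from GENCODE on GRCh37, the assembly of hg19. Members and lists were chosen with earlier results of these data known, and 1 further pathway gene is not reported here. Values per library are given for genes with an unadjusted p under 0.05, or with no overlap and an absolute log2 difference of at least 0.5, for the gene with the highest mean in each of 8 role groups, and for ATM, ATR, CHEK1 and CHEK2. Other genes whose values are printed were chosen after their values were seen. Of the other lists, those with an unadjusted p under 0.05 are named, and of proliferation markers MKI67, TOP2A and PCNA, with RRM2 added later.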

Additional observations from a re-analysis of the deposited data

How the results depend on the processing

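None of the 39 tested genes of the 41 passed the adjusted threshold in any of 15 alternative settings. The smallest adjusted p there was 0.0654 from limma (BRIP1, replicate block, in which NSD2-3 does not enter the differences). The median log2 difference of the genes stayed between -0.47 and -0.31. All 17 lower genes kept a negative difference wherever they were fitted. In each of the 17 the groups did not overlap, so left-out libraries, other pseudocounts and filters could not change that sign. With a minimum mean of 50, 5 of 16 genes were lower at an unadjusted p and 9 without overlap, beside 346 (4.56%) and 980 (12.9%) of 7586 genes. The single higher gene (RAD50) was 0 without limma's trend, with edgeR, DESeq2, limma-voom or the block. Leaving out 1 library gave 7 to 18 lower genes and 0 to 1 higher genes at an unadjusted p, and 1 to 3 higher genes without overlap. It gave 0 to 22 lower and 0 to 8 higher genes among all tested genes at an adjusted p, and 226 to 769 lower ones at an unadjusted p. In the fits with 1 Ctr-KD library, the lone library is assumed to vary like the others. Among all tested genes, adjusted calls lower and higher were 6 and 4, against 1 and 0 without the trend, 11 and 5 with edgeR, 44 and 14 with DESeq2 (351 lower at an unadjusted p), and 8 higher with quantile normalization. The replicate number as a block gave 84 and 18. The labels do not pair the samples, since the number of an NSD2-KD library is that of its siRNA. Same-numbered libraries deviated together with correlations of -0.0152 and -0.0267. These cannot decide on a pairing, because the controls differed by little more than counting noise. The log2 difference of CHEK2 was -0.087 with the replicate block and ranged from -0.11 to 0.27 when 1 library was left out. Depth limits RAD51B, RMI2, XRCC2 and CHEK2 most.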
